A study of Homo sapiens with 12 samples.

Results

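The response of the A549 line labelled NFE2L1 KO2 to bortezomib was described across all genes with a mean FPKM (a read level corrected for gene length and library depth) of 1 or more over the 12 libraries of the series, which gave 12194 of 58676 genes. A549 cells are a long-established line from a human lung carcinoma. The comparison used 4 of the 12 libraries: 2 from KO2 cells given vehicle (DMSO) and 2 from KO2 cells given 200 nM bortezomib, an inhibitor of the proteasome's catalytic core, for 4 h. In each treatment 1 library carries the suffix R1 in its title and the other R2, and the libraries were compared within the R1 pair and within the R2 pair. The other 8 libraries came from a control line (genotype label Control1) and from a line labelled NFE2L1 KO1, each with the same vehicle and bortezomib treatments and 2 libraries per treatment. All groups share the A549 background and the DMSO vehicle. The labels do not say whether KO2 is 1 clone or a pool, which part of NFE2L1 was altered, or whether R1 and R2 were separate cultures, so the p-values measure only the spread between these libraries.

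The proteasome is a proteolytic barrel (the 20S core) capped by a regulatory particle (19S) that recognises and unfolds ubiquitin-tagged proteins. When it is blocked, misfolded proteins accumulate, and cells are known to answer through heat shock factor HSF1, which acts on chaperone genes, and through ATF4, which acts on stress and amino acid genes. NFE2L1, also called NRF1, is a membrane-anchored transcription factor that is cut and released when the proteasome is impaired and that acts on the proteasome subunit genes.

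The 4 libraries held 19261250 to 22092106 assigned reads. Reads from the mitochondrial genome made up 5.79% and 5.44% of the R1 vehicle and bortezomib libraries and 14.7% and 14.4% of the R2 libraries, so this share followed the suffix and not the drug. Across genes, Pearson's r of log2(FPKM + 1) was 0.927 between the R1 libraries, 0.917 between the R2 libraries, 0.895 between the 2 vehicle libraries and 0.920 between the 2 bortezomib libraries. Genes are not independent replicates. Of the epithelial markers, 7 of 11 passed the filter, and KRT8, KRT18 and KRT7, keratins of simple epithelia, were at 397 to 703, 419 to 586 and 223 to 625 FPKM. SFTPC and NKX2-1, which mark lung alveolar epithelium, were below the filter. Of 8 mesenchymal, 7 immune and 5 endothelial markers, only COL1A1 and CD14 passed the filter. The endothelial markers summed to 0.0408 to 0.240 FPKM with KDR at 0, and PTPRC, which marks white blood cells, was at 0 in all 4 libraries.

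NFE2L1 RNA itself was present in KO2. Its FPKM was 18.6 (R1) and 33.6 (R2) in vehicle and 36.7 and 50.8 with bortezomib, against 72.7 and 151 in the vehicle libraries of the control line. Both bortezomib libraries of KO2 lay above both of its vehicle libraries, and every KO2 library lay below the control line's vehicle libraries. NFE2L1 rose by 0.76 ± 0.16 (SE) on the log2(FPKM + 1) scale (limma adjusted p = 0.00906), beside 0.45 in the control line (not called) and 1.39 in KO1 (called). A knockout that changes the reading frame can leave RNA in place, so these values do not measure the protein.

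Bortezomib changed 3297 of the 12194 genes in KO2 at an adjusted p under 0.05 (27.0%), of which 1543 rose (12.7% of the genes tested) and 1754 fell (14.4%). The test was limma with 1 mean per group and the suffix as an additive term. All 3297 moved in the same direction in both pairs. The median log2 fold change over all 12194 genes was -0.02. The change was at least 1 log2 unit for 349 of the genes that rose and 504 of those that fell, and at least 2 units for 46 and 29. A rise of at least 3 units was seen in 9 genes, and no fall was that large. For 1120 of the genes that rose and 1331 of those that fell, the 2 bortezomib libraries did not overlap the 2 vehicle libraries. The same held for 1818 of the 8897 genes not called, and so for 35.0% of all genes tested. The number of calls rested on the pairing by suffix: without that term 39 genes passed (0.32%), 21 higher and 18 lower. It fell to 1136 without the vehicle R1 library, 1269 without vehicle R2, 1706 without bortezomib R1 and 1624 without bortezomib R2.

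**Figure D1:**
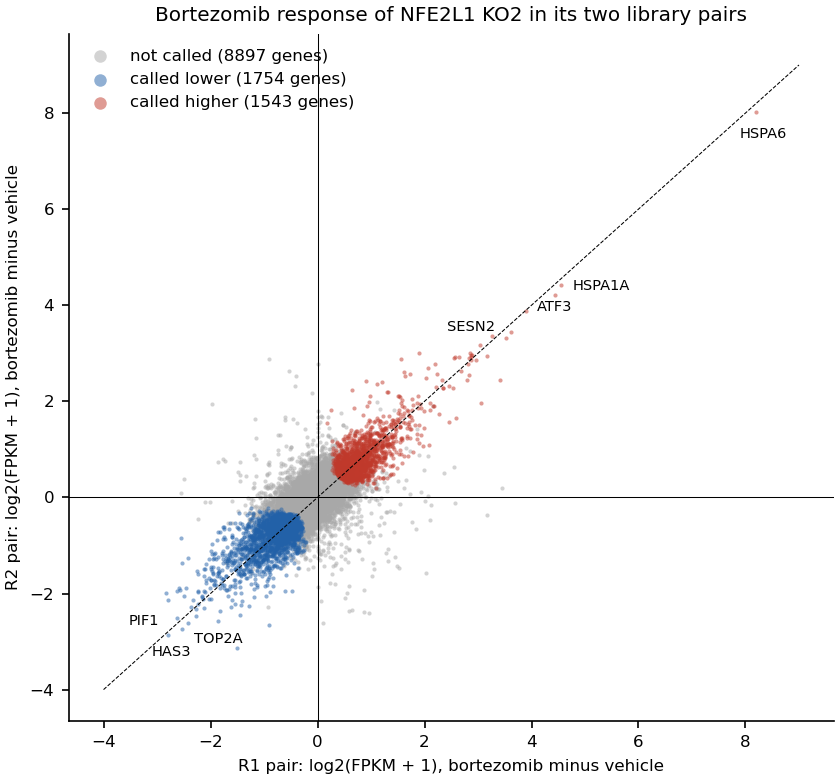
Difference in log2(FPKM + 1) between bortezomib and vehicle in the R1 pair (x axis) and the R2 pair (y axis) of KO2 libraries, with 1 point per gene tested. Red and blue points are the 1543 genes called higher and the 1754 called lower, grey points the 8897 not called, and the dashed line marks equal change in both pairs. HSPA6 lies alone at the upper right.

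The largest rises were in chaperone and stress-response genes. HSPA6, a strictly inducible HSP70 chaperone, was at 0.176 and 0.131 FPKM in vehicle R1 and R2 (9 and 6 reads) and at 344 and 293 FPKM with bortezomib, a log2 fold change of 8.11 ± 0.19 (SE, adjusted p = 1.15e-07). HSPA1A, the main inducible HSP70, went from 68.8 and 48.2 to 1645 and 1045 FPKM (4.49 ± 0.31, adjusted p = 5.07e-05). Its near-identical copy HSPA1B went from 33.9 and 26.2 to 759 and 505 FPKM (4.33 ± 0.27, adjusted p = 3.51e-05). In all of these genes the bortezomib libraries stood far above the vehicle libraries, and the split of reads between HSPA1A and HSPA1B is uncertain because the counting of shared reads is not stated. ZFAND2A, also called AIRAP, a proteasome-associated protein induced by proteotoxic stress, had 8.85 and 6.30 FPKM in vehicle and 119.5 and 78.0 with bortezomib (3.52 ± 0.14, adjusted p = 5.44e-06).

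The other large rises were in genes of the integrated stress response and in secreted factors. ATF3, a transcription factor of that response, went from 0.701 and 0.501 to 24.4 and 21.1 FPKM (3.89 ± 0.18, adjusted p = 1.03e-05). SESN2, a stress-induced inhibitor of mTORC1 signalling, went from 3.31 and 3.91 to 48.4 and 47.8 FPKM (3.42 ± 0.14, adjusted p = 5.44e-06). DDIT3, which encodes the factor CHOP, went from 2.05 and 1.56 to 23.9 and 22.2 FPKM (3.10 ± 0.27, adjusted p = 0.000181), and it overlaps MARS on the opposite strand, so without a stated strand setting some reads may belong to either gene. STC2, a secreted glycoprotein, rose by 3.05 ± 0.24, and PTGS2 (cyclooxygenase) by 2.93. PGF (placental growth factor) went from 0.0778 and 0.148 to 6.96 and 8.02 FPKM and FAM129A (also called NIBAN1) from 0.266 and 0.670 to 12.5 and 8.08. Both also had a log2(FPKM + 1) fold change of 2.93, a scale that understates low genes: by voom (limma's weighted fit) on the recovered reads PGF was at 6.06, FAM129A at 4.62 and PTGS2 at 3.13. PTGS2 also stood apart between the suffixes: it was at 3.57 (R1) and 13.6 (R2) FPKM in vehicle and at 31.7 and 117 with bortezomib, without overlap between the treatments.

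Genes of cell division, hyaluronan synthesis and Wnt reception had the largest falls. HAS3, a hyaluronan synthase, was at 17.5 and 23.7 FPKM in vehicle and 1.66 and 2.41 with bortezomib (log2 fold change -2.83 ± 0.23, adjusted p = 0.00011). TOP2A, the topoisomerase that untangles chromosomes in mitosis, went from 182 and 110 to 33.2 and 17.1 FPKM (-2.52 ± 0.16, adjusted p = 3.51e-05). PLK1, a mitotic kinase, went from 41.6 and 20.9 to 4.97 and 4.49 FPKM (-2.42 ± 0.26, adjusted p = 0.000402). In these genes every bortezomib library was below every vehicle library. The DNA helicase PIF1 (-2.64), the mitotic kinesins KIFC1 (-2.56) and KIF20A (-2.47), the spindle protein PSRC1 (-2.27), the R-spondin receptor LGR4 (-2.37), the Wnt receptor FZD2 (-2.29) and the sulfotransferase GAL3ST1 (-2.32) completed the protein-coding genes among the 12 largest falls. The remaining genes of the 12 were small RNAs with few reads: RNU6-88P had 4 and 15 reads in vehicle and 0 in both bortezomib libraries, and SNORD56 had 8 and 14 reads in vehicle and 0 and 3 with bortezomib.

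**Figure D2:**
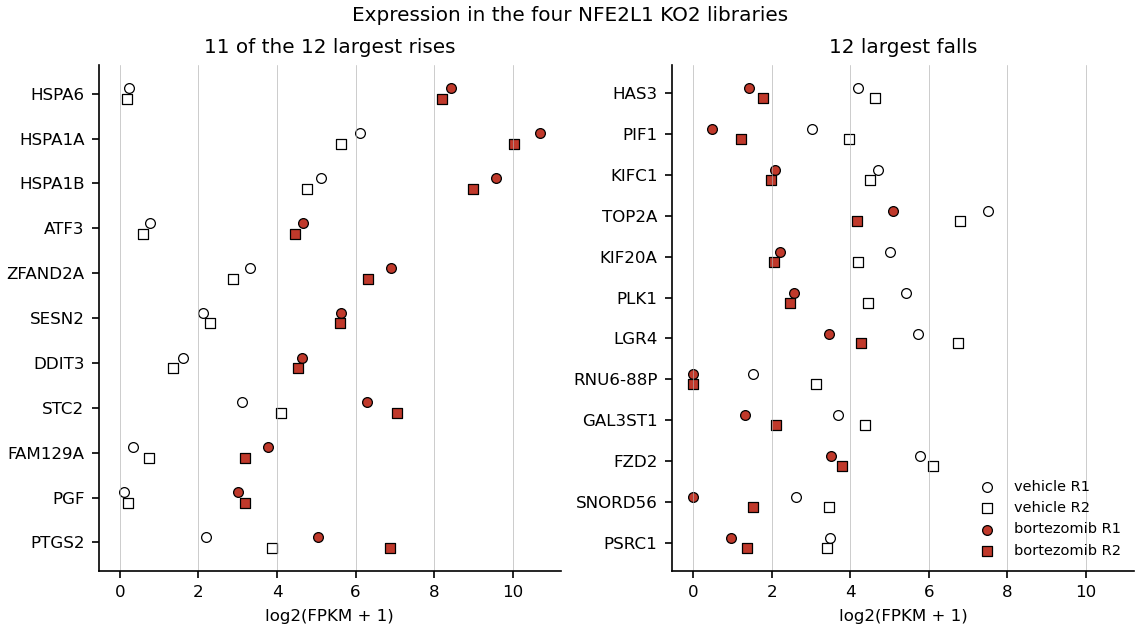
Level of 11 of the 12 largest rises (left) and the 12 largest falls (right) in the 4 KO2 libraries, as log2(FPKM + 1). Open symbols are vehicle, red symbols bortezomib, circles R1 and squares R2, with 1 symbol per library. For every gene shown the red symbols lie on 1 side of the open ones, and PTGS2 and STC2 are also spread between R1 and R2.

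Chaperone genes rose broadly. Of 61 chaperone and co-chaperone genes tested from 5 lists (70 listed), 40 rose (65.6%, against 12.7% of all genes) and 1 fell, with a median log2 fold change of 0.73 (all genes -0.02). Left-out libraries gave 26 to 34 rises: 26 without vehicle R2 and 27 without vehicle R1. Without the suffix term 3 of the 61 rose, all from the HSP70 and HSP110 list. Among HSP70 and HSP110 genes, 10 of 14 rose with that term. With the filter set on the vehicle libraries alone, 9 of 12 of these rose, and 39 of 59 over the 5 lists. HSPH1, the HSP110 exchange factor, went from 40.1 and 23.2 to 264 and 148 FPKM (2.66 ± 0.20, adjusted p = 9.67e-05), and HSPA8, the constitutive HSP70, from 555 and 291 to 1000 and 514 FPKM (0.83 ± 0.20, adjusted p = 0.0154). HSPA8's treatment groups overlapped, and its R2 libraries were both lower than their R1 partners. HSPA12B, a distant HSP70 relative, was the single chaperone gene that fell (-0.67).

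The co-chaperones that hand substrates to HSP70 and HSP90 were split. Of 15 HSP40 genes 8 rose (53.3%, against 12.7% of all genes). They were led by DNAJB1, the partner of inducible HSP70, which went from 54.8 and 28.0 to 331 and 218 FPKM (2.74 ± 0.18, adjusted p = 4.78e-05). DNAJB12, DNAJB14 and DNAJC5 had log2 fold changes between -0.09 and -0.04 and did not pass. BAG3, which links HSP70 to autophagy, went from 58.2 and 30.8 to 429 and 247 FPKM (2.91 ± 0.20, adjusted p = 4.78e-05), and the small heat shock genes HSPB1 (2.49) and HSPB8 (2.39) rose with it. BAG1, BAG4 and BAG5 did not pass, at 0.07, -0.09 and 0.16. Of 13 genes for HSP90, its co-chaperones and heat shock factors, 10 rose (76.9%, against 12.7%). Among them HSP90AA1, the inducible HSP90, rose by 2.03 ± 0.21 and HSP90AB1, the constitutive form, by 1.10 ± 0.17. HSF1 itself rose by 0.53 ± 0.15, from 23.4 and 18.3 to 30.9 and 29.8 FPKM. Of 10 chaperonin genes 8 rose (80%, against 12.7%), from CCT7 (0.57) to HSPE1 (1.55), and CCT3 and CCT5 did not pass. No chaperonin gene passed without the suffix term. The treatment groups did not overlap in 3 of the 10 (30%), against 35.0% of all genes. HSPE1 shares its position with a read-through gene (0 FPKM) and, on the opposite strand, with HSPD1. The mean over the KO2 libraries was 317.7 FPKM for HSPD1 and 10.18 for HSPE1. Without a stated strand setting the level and rise of HSPE1 are uncertain.

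The promoters of the rising chaperones are shown for the letters GAANNTTCNNGAA, the heat shock element bound by HSF1, searched on both strands. RefSeq promoters (GRCh38.p14, 250 bases before to 50 after the gene's start) were matched for 8472 of the 12140 distinct gene symbols tested. The element was found in 0.487% of all 27305 promoters, in 0.307% of the 8472, in 9 of 1112 genes that rose (0.809%), in 1 of 1234 that fell (0.081%) and in 5 of 54 chaperone genes. The 5 were HSPA6, HSPA8, DNAJA1, DNAJB6 and CHORDC1, and all 5 rose. The matched promoters of HSPA1A, HSPA1B, BAG3, DNAJB1, HSPH1, HSPB1 and HSP90AA1, which rose too, held no match. CHORDC1, an HSP90 co-chaperone (log2 fold change 2.03), held 3 overlapping matches. The 250 bases before the start are given for HSPA6 (chr1:161524290-161524539, plus strand), which had the largest rise, and for CHORDC1 (chr11:90223050-90223299, minus strand), with the matches in capitals.
HSPA6: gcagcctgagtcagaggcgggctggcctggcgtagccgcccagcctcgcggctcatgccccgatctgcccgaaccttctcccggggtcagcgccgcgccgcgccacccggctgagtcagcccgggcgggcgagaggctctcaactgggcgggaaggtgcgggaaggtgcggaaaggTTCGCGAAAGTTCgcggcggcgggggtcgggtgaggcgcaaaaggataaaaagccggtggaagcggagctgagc
CHORDC1: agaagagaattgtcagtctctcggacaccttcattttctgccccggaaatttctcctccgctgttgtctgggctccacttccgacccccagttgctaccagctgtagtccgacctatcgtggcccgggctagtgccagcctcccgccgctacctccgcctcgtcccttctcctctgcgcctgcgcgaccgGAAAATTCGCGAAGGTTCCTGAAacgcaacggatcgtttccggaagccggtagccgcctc
In HSPA6 the match began 74 bases before the start, and in CHORDC1 the matches began 60, 55 and 50 bases before it.

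Some of the proteasome's own genes rose in KO2, by less than 1 log2 unit each. Of 31 subunit genes of the 20S core and the 19S cap that were tested (33 listed), 14 rose (45.2%, against 12.7% of all genes) and 0 fell, with a median log2 fold change of 0.54, and 30 of 31 had a value above 0. In the 20S core 3 of 12 passed: PSMA1 (0.55), PSMA5 (0.56) and PSMB4 (0.77). PSMB5, the subunit that bortezomib binds, was at 82.3 and 37.9 FPKM in vehicle and 85.8 and 51.6 with bortezomib, and did not pass (0.25 ± 0.20, adjusted p = 0.382). PSMA2 and PSMA6 were below the filter. In the 19S cap 11 of 19 rose. PSMC6, an ATPase of the cap's ring, went from 12.7 and 7.77 to 24.3 and 15.99 FPKM (0.92 ± 0.15, adjusted p = 0.00242). PSMD12, a lid subunit, went from 23.6 and 14.9 to 49.1 and 25.8 FPKM (0.89 ± 0.16, adjusted p = 0.00473), and PSMD14, the deubiquitinase of the lid, from 12.2 and 5.61 to 23.0 and 11.2 FPKM (0.87 ± 0.16, adjusted p = 0.00585). In 30 of 31 genes the bortezomib library was the higher one of both pairs. The treatment groups did not overlap in 6 of the 31 genes (19.4%), a smaller share than the 35.0% of all genes. No subunit passed without the suffix term. The count was 1 without vehicle R1, 4 without vehicle R2, 2 without bortezomib R2 and 11 without bortezomib R1.

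Assembly factors and activators did not rise with the subunits. Of 12 tested 0 rose, 1 fell (PSMG3, an assembly chaperone, -0.48), and the median was 0.01. The immunoproteasome subunits PSMB8, PSMB9 and PSMB10 did not pass. UBB, which encodes ubiquitin, went from 46.1 and 20.3 to 134 and 90.8 FPKM (1.82 ± 0.30, adjusted p = 0.00306). RPS27A, which encodes ubiquitin fused to a ribosomal protein, was at 0.36 and did not pass. Of 23 genes of ubiquitin handling and the p97 unfoldase, 7 rose (30.4%, against 12.7% of all genes) and 0 fell, and 3 to 7 rose with 1 KO2 library left out, with 3 without vehicle R1 and 4 without vehicle R2 or bortezomib R2. Those that rose included ZFAND2A, the shuttle factor UBQLN1 (1.10), the ubiquitin-conjugating enzyme UBE2B (1.03) and the p97 cofactor NPLOC4 (0.90). VCP, which encodes p97, was at 0.36 ± 0.15 and did not pass. Neither did NGLY1 (0.27) and DDI2 (-0.08), the glycanase and the protease that act on NFE2L1 protein.

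Of the NFE2L and small MAF genes, 5 of 7 rose with the filter set on the vehicle libraries alone. With the main filter 8 were tested, of which 6 rose (75.0%, against 12.7% of all genes) and 0 fell. The count was 1 without vehicle R1, 3 without vehicle R2 and 3 without bortezomib R2. MAFF, a small MAF partner of these factors, went from 1.01 and 0.638 to 9.05 and 7.97 FPKM (2.39 ± 0.13, adjusted p = 2.43e-05), and MAFK (1.04) and MAFG (0.79) rose too. NFE2L2, which encodes NRF2, rose by 0.55 ± 0.15, and its repressor KEAP1 did not pass (-0.10). Genes of the NRF2-type antioxidant program did not rise as a group: of 23 tested, 2 rose (8.70%, against 12.7% of all genes), 5 fell (21.7%, against 14.4%) and the median was -0.08. ME1, a source of NADPH, rose by 1.18 ± 0.15 and OSGIN1 by 0.98 ± 0.18, while AKR1C3, a steroid reductase, fell from 278 and 150 to 113 and 80.1 FPKM (-1.09 ± 0.23, adjusted p = 0.00846). AKR1C3 overlaps AKR1C1 on the same strand and AKR1C2 on the opposite strand, so some of its reads may belong to those genes. HMOX1, the haem oxygenase, was at 47.1 and 42.5 FPKM in vehicle and 49.99 and 49.4 with bortezomib (0.15 ± 0.21, adjusted p = 0.635). Its change was 0.67 in the control line and 1.12 in KO1, and neither difference from KO2 passed. The letters TGACNNNGC, the antioxidant response element, were in 6 of 25 matched 20S and 19S promoters (24.0%), 15.5% of the 8472 tested genes and 13.6% of all promoters. The 6 were PSMB3, PSMC4, PSMD1, PSMD3, PSMD12 and ADRM1, of which PSMC4 (0.81) and PSMD12 rose.

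Nearly all ATF4-type stress genes rose. With the filter set on the vehicle libraries alone, 13 of 15 rose, against 1425 of 12223 genes. Of the 17 tested with the main filter, 2 had a KO2 vehicle mean under 1 FPKM. Of these 17, 15 rose (88.2%, against 12.7% of all genes), 0 fell, and the median log2 fold change was 1.81. The number was 11 to 14 with any 1 KO2 library left out, and 5 without the suffix term. PPP1R15A (GADD34), which restores translation by reversing eIF2alpha phosphorylation, went from 15.4 and 14.97 to 127 and 116 FPKM (2.92 ± 0.15, adjusted p = 2.26e-05). TRIB3, a pseudokinase that inhibits ATF4 signalling, went from 19.4 and 12.9 to 145 and 79.8 FPKM (2.69 ± 0.21, adjusted p = 9.78e-05), and GDF15, a secreted stress cytokine, from 12.7 and 17.3 to 78.7 and 136 FPKM (2.72 ± 0.17, adjusted p = 3.39e-05). In these genes both bortezomib libraries lay above both vehicle libraries. ATF4 itself rose by 0.77 ± 0.16. SLC7A11, the cystine transporter, was at 51.1 and 101 FPKM in vehicle and 67.5 and 86.8 with bortezomib and did not pass (0.09 ± 0.20, adjusted p = 0.773), and ATF5 did not pass (-0.37).

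The letters TGATGNAA, the composite element bound by C/EBP and ATF factors, occurred in 2 of the 15 matched promoters of these genes, ATF3 and CHAC1, in 1.45% of the 8472 tested genes and in 3.67% of all promoters. CHAC1, a glutathione-degrading enzyme, rose from 1.38 and 1.36 to 12.8 and 10.4 FPKM (2.40 ± 0.21, adjusted p = 0.000182). The matched promoter of DDIT3, which rose by more than CHAC1, held no match. The 250 bases before both starts are given because these promoters held a match, shown in capitals. They are ATF3 (chr1:212565157-212565406, plus strand) and CHAC1 (chr15:40953221-40953470, plus strand).
ATF3: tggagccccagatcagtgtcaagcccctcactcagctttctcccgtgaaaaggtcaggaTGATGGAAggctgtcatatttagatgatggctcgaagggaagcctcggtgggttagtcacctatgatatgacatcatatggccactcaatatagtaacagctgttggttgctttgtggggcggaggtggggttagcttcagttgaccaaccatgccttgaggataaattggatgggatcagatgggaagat
CHAC1: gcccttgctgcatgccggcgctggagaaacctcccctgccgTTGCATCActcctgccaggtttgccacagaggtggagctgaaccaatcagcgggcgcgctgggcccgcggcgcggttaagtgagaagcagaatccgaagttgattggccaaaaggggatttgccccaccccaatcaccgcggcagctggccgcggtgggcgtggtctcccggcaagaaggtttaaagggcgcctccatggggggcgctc
The match began 191 bases before the ATF3 start and 209 bases before the CHAC1 start.

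**Figure D3:**
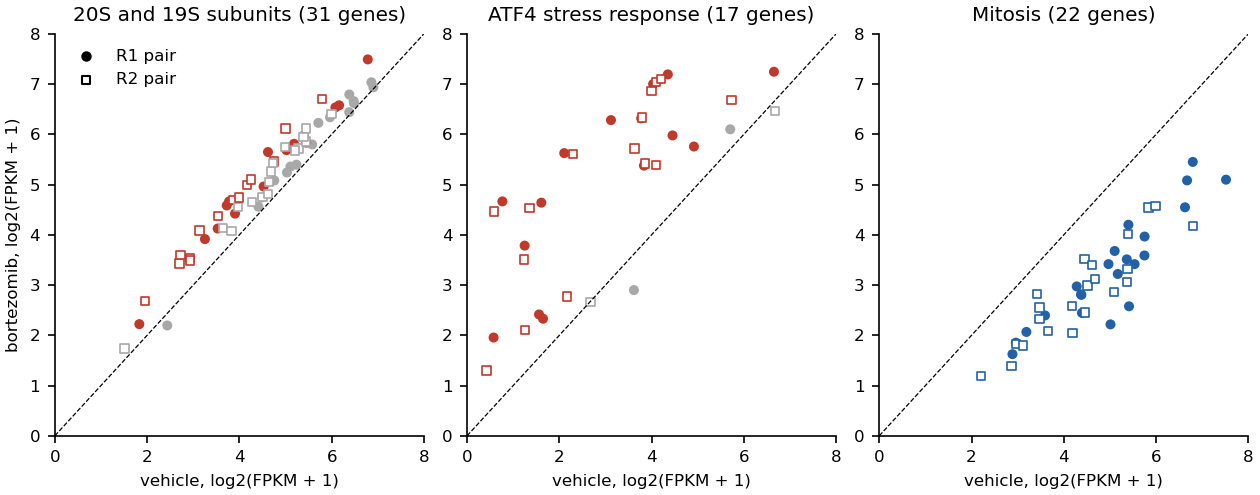
Level with bortezomib against level with vehicle, as log2(FPKM + 1), for the 31 tested 20S and 19S subunits, 17 ATF4 stress-response genes and 22 mitosis genes. Filled circles are the R1 pair, open squares the R2 pair, red genes were called higher, blue lower and grey not called, and the dashed line marks equal levels. For 30 of the 31 proteasome subunits both points lie above the line, and all mitosis points lie below it.

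Amino acid and tRNA charging genes also rose in part. With the filter set on the vehicle libraries alone, 10 of 15 amino acid synthesis and transport genes rose. Of the 18 tested with the main filter, 3 had a KO2 vehicle mean under 1 FPKM. Of these 18, 12 rose and 0 fell (66.7% against 12.7%), with a median of 0.80. The count was 6 without vehicle R1 and 0 without the suffix term. MTHFD2, a mitochondrial folate enzyme, went from 17.3 and 10.1 to 68.97 and 39.1 FPKM (1.89 ± 0.21, adjusted p = 0.000422). The serine pathway genes PHGDH (1.25) and PSAT1 (1.13) rose, as did the transporters SLC1A4 (1.47) and SLC7A1 (1.26). The most abundant transporter, SLC7A5, was at 615 and 1199 FPKM in vehicle and 767 and 1344 with bortezomib and did not pass (0.24 ± 0.15, adjusted p = 0.259). ASNS, asparagine synthetase, did not pass either, at 0.198 and 1.05 FPKM in vehicle and 0.963 and 2.43 with bortezomib (0.73 ± 0.24, adjusted p = 0.0519). Of 20 cytosolic tRNA synthetase genes, 9 rose and 1 fell (45% and 5%, against 12.7% and 14.4%). The number that rose was 3 without vehicle R1 and 5 without any other single KO2 library. CARS, GARS and WARS rose by 1.15, 1.12 and 1.02, and VARS fell by 0.64 on the log2 scale.

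The endoplasmic reticulum response was partial. Of 24 ER chaperone and unfolded protein response genes 9 rose and 1 fell (37.5% and 4.17%, against 12.7% and 14.4% of all genes), with a median of 0.26. The number that rose was 4 without vehicle R1 and 0 without the suffix term. HSPA5 (BiP), the main ER chaperone, went from 238 and 362 to 653 and 898 FPKM (1.38 ± 0.14, adjusted p = 0.000349). The sensor ERN1 (IRE1) rose by 1.45 ± 0.13, its target factor XBP1 by 1.27 ± 0.14 and HERPUD1, an ER degradation component, by 1.06 ± 0.15. The folding enzymes of the same compartment did not follow: PDIA4 fell from 140 and 253 to 96.8 and 161 FPKM (-0.59 ± 0.15, adjusted p = 0.0216), and HSP90B1 (0.23), CALR (-0.30), PDIA3 (-0.08) and PDIA6 (0.06) did not pass. The rises of ERN1 and HSPA5 were without overlap between treatments, although the R2 library was the higher of each pair.

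Autophagy genes rose in 9 of 11 cases (81.8%, against 12.7% of all genes), with a median of 0.74. The count was 2 without vehicle R1, 3 without vehicle R2, 3 without bortezomib R2, 5 without bortezomib R1 and 0 without the suffix term. GABARAPL1, an ATG8 protein, went from 3.71 and 2.20 to 31.6 and 16.3 FPKM (2.62 ± 0.16, adjusted p = 3.26e-05), and MAP1LC3B, the LC3 gene, rose by 1.49 ± 0.17. SQSTM1 (p62), the receptor for ubiquitinated cargo, went from 87.4 and 74.7 to 135 and 113 FPKM (0.61 ± 0.14, adjusted p = 0.014). GABARAPL2 and NBR1 stayed at 0.01 and 0.08 and did not pass, and GABARAP was below the filter.

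Some genes of growth arrest and cell death rose. CDKN1A (p21), a cell cycle inhibitor, went from 29.6 and 15.9 to 123 and 94.0 FPKM (2.26 ± 0.18, adjusted p = 0.000112), and GADD45A, a growth arrest gene, from 12.9 and 6.02 to 69.5 and 33.1 FPKM (2.31 ± 0.21, adjusted p = 0.00021). MDM2, a ubiquitin ligase, rose by 1.22 ± 0.16. The BH3-only death genes PMAIP1 (NOXA) and BBC3 (PUMA) rose by 1.67 and 1.28, and the death receptor TNFRSF10B (DR5) by 1.55 ± 0.15. Of 13 BCL2 family genes, PMAIP1 and BBC3 among them, 4 rose (30.8%, against 12.7% of all genes) and 0 fell. MCL1, a survival factor and short-lived protein, was at 72.9 and 42.2 FPKM in vehicle and 71.8 and 63.2 with bortezomib and did not pass (0.27 ± 0.25, adjusted p = 0.453).

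Several chemokine genes and NF-kappaB subunit genes rose. Of 22 NF-kappaB feedback, chemokine and cytokine genes 12 rose and 1 fell (54.5% and 4.55%, against 12.7% and 14.4% of all genes), with a median of 0.61, and 6 rose without vehicle R2, 7 without vehicle R1 and 7 without bortezomib R2. CXCL2, a neutrophil chemokine, went from 2.01 and 2.94 to 20.4 and 28.6 FPKM (2.87 ± 0.17, adjusted p = 3.26e-05). CXCL8 (interleukin 8) went from 1.53 and 1.92 to 8.399 and 22.3 FPKM (2.44 ± 0.41, adjusted p = 0.00338), with a wide gap between its bortezomib libraries. NFKBIA, which encodes IkappaB-alpha, was at 35.5 and 19.3 FPKM in vehicle and 14.7 and 14.8 with bortezomib and did not pass (-0.79 ± 0.28, adjusted p = 0.0642). CXCL5, the most abundant chemokine of the list, overlapped between treatments (-0.05 ± 0.28). The subunit genes RELB (1.37), NFKB2 (0.89) and RELA (0.63) rose, and LIF, a cytokine, fell (-0.59).

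Among immediate early and growth factor genes there were rises and falls. JUN, an AP-1 subunit, rose from 27.6 and 13.9 to 46.4 and 37.6 FPKM (1.05 ± 0.25, adjusted p = 0.0154), IER5 rose by 1.02 and IER2 fell (-1.13), while FOS and EGR1 were below the filter. DUSP1, a phosphatase that switches off MAP kinases, went from 35.0 and 17.2 to 149 and 117 FPKM (2.38 ± 0.18, adjusted p = 9.78e-05), whereas SPRY2, an inhibitor of receptor tyrosine kinase signalling, fell from 8.01 and 6.94 to 2.54 and 3.14 FPKM (-1.14 ± 0.18, adjusted p = 0.00235). Of 11 EGFR family ligands and receptors 5 rose (45.5%, against 12.7% of all genes), led by HBEGF (1.74) and NRG1 (1.22), and ERBB2 fell (-0.63). The number that rose was 3 without vehicle R1 or R2. Of 17 YAP-TEAD targets 6 rose and 2 fell (35.3% and 11.8%, against 12.7% and 14.4%), and 3 rose without vehicle R1. CYR61 (CCN1) rose by 1.497 ± 0.21 and CTGF (CCN2) by 1.22 ± 0.19, while the receptor kinase AXL fell from 82.0 and 115 to 29.5 and 40.7 FPKM (-1.46 ± 0.18, adjusted p = 0.000745) and NT5E (CD73) by -1.87 ± 0.25.

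Every tested mitosis gene fell. All 22 of 22 were called lower (100%, against 14.4% of all genes), and all 22 were lower in both pairs without overlap between the treatments, as were 19.2% of all genes. The median log2 fold change was -1.48. The count was 21 or 22 with any 1 KO2 library left out, and 2 without the suffix term. MKI67, the proliferation marker Ki-67, went from 45.3 and 40.4 to 9.67 and 7.37 FPKM (-2.21 ± 0.15, adjusted p = 5.49e-05). AURKB, the kinase of the chromosomal passenger complex, went from 52.7 and 40.7 to 11.03 and 8.97 FPKM (-2.11 ± 0.18, adjusted p = 0.000181), and CCNB1, cyclin B1, from 101 and 56.2 to 32.9 and 22.3 FPKM (-1.44 ± 0.16, adjusted p = 0.000408). The smallest fall was that of CENPA, the centromeric histone (-0.95 ± 0.22). In bulk RNA, fewer cells in mitosis and less of these RNAs per cell cannot be told apart, and a level scaled to library depth does not show the total RNA per cell.

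Replication genes fell in part. Of 23 tested 12 fell and 0 rose (52.2% against 14.4%), with a median of -0.72. The count was 4 without vehicle R1, 7 without vehicle R2 and 7 without bortezomib R1. The replicative helicase genes MCM3 (-1.22) and MCM4 (-1.15) fell and MCM7 did not pass (-0.30). UHRF1, which maintains DNA methylation, went from 31.7 and 18.4 to 6.62 and 5.92 FPKM (-1.79 ± 0.21, adjusted p = 0.000552). PCNA, the sliding clamp, went from 236 and 87.2 to 88.6 and 56.9 FPKM (-1.004 ± 0.27, adjusted p = 0.0258), with overlapping groups. CDC45 (0.06), CDT1 (-0.06) and E2F1 (-0.29) did not pass. Histone cluster genes fell in 8 of 11 cases (72.7%, median -1.05), and in 1 to 6 with 1 KO2 library left out (1 without vehicle R1, 2 without bortezomib R1 and 4 without vehicle R2), led by HIST1H2AC, which went from 9.57 and 6.79 to 1.10 and 0.760 FPKM (-2.24 ± 0.25, adjusted p = 0.000441). Most histone cluster genes, 60 of 71, were below the filter.

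The promoters of mitosis genes were searched on both strands for TTTGAA, the core of the cell cycle homology region, which the MuvB complex binds. It was in 12 of 19 matched mitosis promoters (63.2%), 14.3% of the 1234 genes that fell, 7.91% of the 1112 that rose, 8.92% of the 8472 tested and 15.4% of all promoters. The 12 were PLK1, CDK1, CCNB2, CDC20, TOP2A, MKI67, KIF11, CENPF, CENPA, BUB1B, NDC80 and HMMR, and in 9 of the 12 a match began within 60 bases of the start. PLK1 (chr16:23678639-23678888, plus strand) and TOP2A (chr17:40417897-40418146, minus strand), which had the largest falls among them, are given for the 250 bases before the RefSeq start, with the matches in capitals.
PLK1: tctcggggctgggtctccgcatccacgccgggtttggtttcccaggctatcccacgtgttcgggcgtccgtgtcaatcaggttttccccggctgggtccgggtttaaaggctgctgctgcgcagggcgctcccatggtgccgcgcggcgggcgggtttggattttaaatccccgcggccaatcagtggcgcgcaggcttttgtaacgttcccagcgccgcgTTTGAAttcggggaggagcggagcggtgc
TOP2A: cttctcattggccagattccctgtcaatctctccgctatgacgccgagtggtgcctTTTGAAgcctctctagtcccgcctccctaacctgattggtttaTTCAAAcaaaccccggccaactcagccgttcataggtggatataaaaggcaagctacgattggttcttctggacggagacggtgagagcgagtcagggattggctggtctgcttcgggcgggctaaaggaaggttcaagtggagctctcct
PLK1 held 1 match, which began 29 bases before its start, and TOP2A held 2, which began 194 and 151 bases before it.

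Cell surface and matrix genes made up another group of falls. Of 15 hyaluronan and caveolar genes 10 fell and 1 rose (66.7% lower, against 14.4%), with a median of -1.06, and 5 fell without vehicle R2. CAV1, the scaffold protein of caveolae, went from 204 and 198 to 55.2 and 32.2 FPKM (-2.22 ± 0.22, adjusted p = 0.000306), and CAV2 fell by 1.29 on the log2 scale. HAS2, another hyaluronan synthase, fell too (-0.76), and CD44, the hyaluronan receptor, did not pass (-0.42). UGDH, which makes the hyaluronan precursor UDP-glucuronate, fell from 162 and 94.1 to 78.3 and 43.8 FPKM (-1.06 ± 0.20, adjusted p = 0.00577). Of 19 Frizzled and Wnt pathway genes 7 fell and 3 rose (36.8% and 15.8%, against 14.4% and 12.7% of all genes). No gene of this list passed without the suffix term. With the filter set on the vehicle libraries alone, 7 of 18 fell and 1 rose, and the hyaluronan and caveolar list had no rise. The co-receptors LRP5 and LRP6 fell by 1.49 and 0.73 on the log2 scale. AXIN2 (1.11), a feedback inhibitor, rose from 0.648 and 0.695 FPKM in vehicle, both under 1, to 2.37 and 2.89 with bortezomib.

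Of 19 cholesterol genes 2 rose (10.5%) and 3 fell (15.8%), shares near those of all genes (12.7% and 14.4%). Of 20 ID and TGF-beta feedback genes 2 rose and 2 fell (10.0% each). The cytosolic ribosomal protein genes had 1 call of 80 (RPL10A, 0.75), but 11 rises and 1 fall by voom with the suffix term. Their median of 0.35 came from the R2 pair (0.66) and not from the R1 pair (0.05). None of 13 mitochondrially encoded protein genes passed (median -0.16). Of 15 snoRNA host genes 8 rose (53.3%), GAS5 (0.65) and SNHG1 (1.01) among them, and 2 fell (13.3%). The number that rose was 1 without vehicle R2, 3 without vehicle R1 and 4 without bortezomib R1. Of 295 ZNF genes 52 rose (17.6%) and 16 fell (5.42%). COL1A1, the 1 mesenchymal marker tested, rose from 4.32 and 3.59 to 11.3 and 23.3 FPKM (1.81 ± 0.43, adjusted p = 0.0162). The 8 mesenchymal markers summed to 6.21 and 5.40 FPKM in vehicle and 12.96 and 24.98 with bortezomib, and the part of any other cell type in this was not tested. CD14, the immune marker tested, fell from 0.714 and 2.20 to 0 and 0.336 FPKM (-1.02 ± 0.18).

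**Figure D4:**
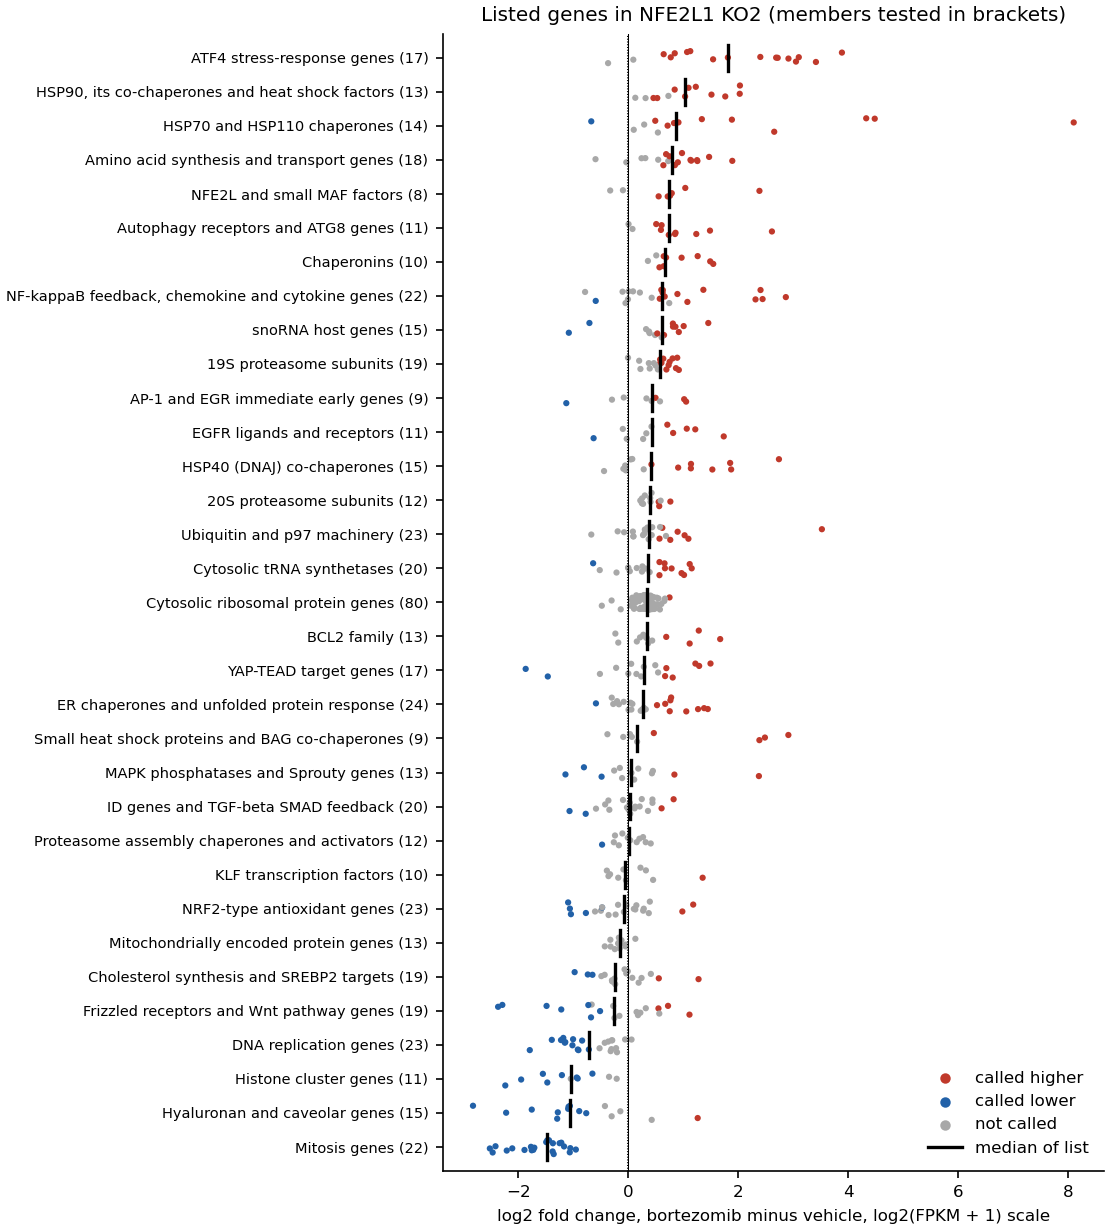
Log2 fold change of each tested member of lists with at least 8 members, with 1 point per gene and the number tested in brackets. Red points were called higher, blue lower and grey not called, black bars are list medians, and the dotted line is the median of all genes. ATF4 genes have the highest median (1.81) and mitosis genes the lowest (-1.48).

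The response of KO2 was set beside that of the other lines, which were fitted in the same model. Bortezomib called 3952 genes in the control line (32.4%) and 3378 in KO1 (27.7%). Of the 1543 genes that rose in KO2, 1155 (74.9%) were also called higher in the control line and 1228 in KO1, and of the 1754 that fell, 1308 (74.6%) and 1309. In neither other line were 143 of the rises and 193 of the falls called. Missing a threshold in another line does not show a difference, so the difference between the responses was tested for each gene. No gene passed for KO2 minus the control line (0.0%), although 883 genes had an unadjusted p under 0.05, and the lowest adjusted p was 0.265. None passed for KO2 minus KO1 (0.0%), where 280 genes had an unadjusted p under 0.05 and the lowest adjusted p was 0.673. The median SE of a difference was 0.24 log2 units, so small differences were not detectable in these libraries. Voom on the recovered reads called 10 genes for KO2 minus the control line, and voom called 0 for KO2 minus KO1.

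The genes of lowest p for the difference from the control line were described without a call. The chemokine CXCL3 was at 0.753 and 1.36 FPKM in KO2 vehicle and 7.94 and 10.5 with bortezomib, and in the control line at 0.965 and 3.21 and then 2.15 and 4.02, a difference of 1.85 ± 0.29 log2 units (adjusted p = 0.265). ITPKC, an inositol trisphosphate kinase, rose by 0.55 in KO2 and by 1.96 in the control line, a difference of -1.40 ± 0.21. UACA, a pro-apoptotic scaffold, was at -0.07 in KO2 and -1.22 in the control line. ST6GAL2, a sialyltransferase, fell in KO2 (-1.17) and was at -2.38 in the control line, from 6.79 and 7.89 FPKM in KO2 vehicle and 24.0 and 40.2 in control vehicle. GAS8-AS1, an antisense RNA, was at -0.28 and 1.22. For KO2 minus KO1 the lowest were the pseudogenes RP11-573D15.1 and RP11-458F8.1, MYH14 (a non-muscle myosin, 2.01 in KO2 and 0.43 in KO1), the small RNA SNORD53_SNORD92 and CXCL1 (2.41 and 4.04). The 10 genes voom called were PHLDB2, IL11, ITPKC, DUSP1, UACA, GPRC5A, TUBB4A, KIAA1217, AREG and LGALS8, among which IL11, a cytokine, was at 0.75 in KO2 and -1.50 in the control line.

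The members of the main groups in each line are given side by side, as these comparisons share no libraries but share 1 model. Over all 12194 genes tested, 1543 rose in KO2, 1958 in the control line and 1694 in KO1, so counts of rises differ between lines in general. Of the 61 chaperone genes 40 rose in KO2, 32 in the control line and 43 in KO1, with medians of 0.73, 0.72 and 0.80. Of the 31 proteasome subunits 14 rose in KO2, 20 in the control line and 14 in KO1, with medians of 0.54, 0.68 and 0.51. PSMC4, a cap ATPase, rose by 0.81 in KO2, 1.43 in the control line and 0.85 in KO1, and PSMC6 by 0.92, 1.41 and 0.80, and for neither did the difference between KO2 and the control line pass. ATF3 rose by 3.89, 2.58 and 4.10 (difference from the control line 1.31 ± 0.25, adjusted p = 0.272). PLK1 fell in KO2 (-2.42) and was at -2.43 in the control line and -1.38 in KO1. The 22 mitosis genes had medians of -1.48 in KO2, -1.76 in the control line and -1.19 in KO1.

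**Figure D5:**
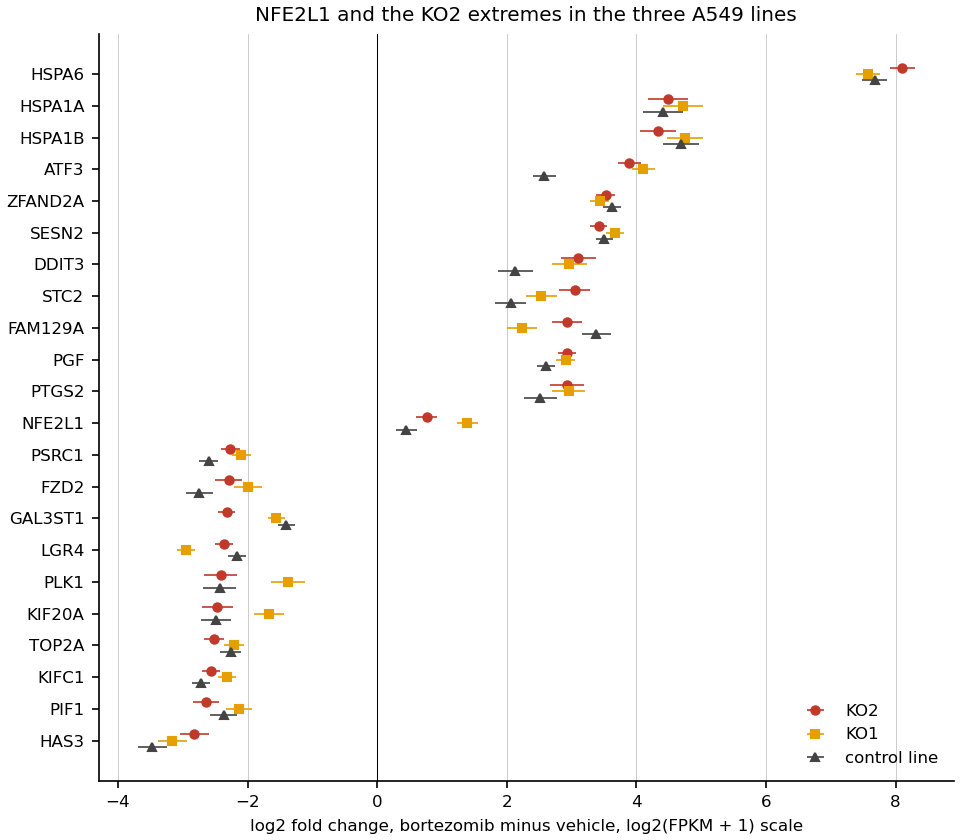
Log2 fold change of bortezomib against vehicle in KO2 (red circles), KO1 (orange squares) and the control line (dark triangles) for NFE2L1 and protein-coding genes among the 12 largest rises and 12 largest falls of KO2. Bars are ± 1 SE from the shared limma model. All genes shown have the same sign in the 3 lines, and ATF3 (3.89 in KO2 against 2.58 in the control line) and PLK1 (-2.42 against -1.38 in KO1) show gaps that did not pass the test of the difference.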

How the data were processed

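RNA was sequenced from 12 A549 libraries (3 lines, vehicle or bortezomib, 2 libraries per group), and 4 of them are the KO2 comparison. Per the labels' protocols, RNA was column-purified and cDNA primed with random hexamers. The authors deposited FPKM for 58676 genes with a gene length each. FPKM times length gave whole reads for 100% of values (within 0.01), which gave the depth of 13211608 to 23819258 assigned reads. Per the submitters' processing notes, CASAVA, STAR 2.5, HTSeq 0.6.1 and DESeq2 were used with hg19, with no role or order given. The deposited coordinates are those of GRCh38 (95.2% of positions as in GENCODE release 29). The strand setting is not given in the sources used here.

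Groups came from the labels. R 4.3.3 and limma 3.58.1 (functions lmFit, contrasts.fit and eBayes with a trend) were run on log2(FPKM + 1) of the 12194 genes whose mean FPKM reached 1. The 12 libraries had 1 mean per group plus the title suffix (R1, R2 or none) as a block, and genes were called at a Benjamini-Hochberg adjusted p under 0.05. Fold changes on this scale understate the change of low genes. The filter kept 439 genes with a KO2 vehicle mean under 1, some of which passed only through bortezomib libraries. With the filter set on the vehicle libraries alone, 11 of 21 NF-kappaB list genes and 5 of 16 YAP-TEAD targets rose. The suffix pairs the libraries because the comparison was defined by it. In the knockout lines same-numbered libraries deviated together: r of their deviations from the group means was 0.805 to 0.890 over 6 pairs of groups. Over all 15 pairs r was 0.696 to 0.890, with the unnumbered control libraries taken as the first of their pair. The model was also run on simulated data in which every group shared the same additive replicate difference. The block assumes just that, so this run cannot show whether the block suits the real libraries. Gene lists and members were chosen with earlier results of these data known. Genes were named by a rule: NFE2L1, the 12 largest rises and falls moving alike in both pairs, the extremes and 2 most abundant genes of each list, and the 5 lowest p of each difference. Other named genes are list members or counted few, chosen after their values were seen. Alternatives were the block, pseudocount (0.1), filter, scaling, voom, and each library left out, and list medians in each pair alone were added after seeing the data. With 2 libraries per group a lone remaining library is assumed to vary like the others. Python 3.11.15, pandas 2.3.3 and matplotlib were used, and 0 columns were left out. Some items, among them 1 of the 12 largest rises, are not reported here.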

Additional observations from a re-analysis of the deposited data

How the results depend on the processing

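The replicate block decided how many genes passed in KO2: 3297 with it, 39 without it and 31 by voom without it, and leaving it out of the limma model moved no fold change. The count was 853 with a log2 fold change of at least 1, 1819 with no filter on low FPKM, and 1136 to 1706 with 1 KO2 library left out. It was 2349 to 3946 under the other block, pseudocount, filter, scaling and voom settings. Higher calls were 46.8% of all calls, and 52.1% after quantile normalization. For KO2 minus the control line the count of 0 became 10 by voom with the block and 1 with no filter (a Y RNA), and for KO2 minus KO1 it was 0 in every setting run.

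None of the 106 called genes named by rule changed direction, and 92 of them no longer passed without the block. Signs changed only in genes that had not passed. With quantile normalization HSP90B1 was at -0.0042, AKR1B10 at 0.0587, KRT18 at -0.1976 and MT-CO1 at 0. With each KO2 library left out in turn, the range was -0.0209 to 0.4597 for PSMA7, -0.6869 to 0.2519 for PSMB9, -0.1936 to 0.2658 for PSME3, -0.1164 to 0.3008 for SLC7A11, -0.0158 to 0.5808 for FTL, -0.1032 to 0.0275 for AKR1B10, -0.021 to 0.8691 for FOSL1, -0.4851 to 0.3848 for CXCL5, -0.5842 to 0.394 for ID1, -0.1452 to 0.0487 for MT-CO1 and -0.2779 to 0.0317 for MT-CO3. The cause was not tested. Depth set a floor of 3 reads, 0.136 to 0.156 FPKM for a gene of 1 kilobase in the KO2 libraries, and 2 libraries per group limit every test.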
